A study of Mus musculus with 12 samples.

Results

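The genes described are 9 members of the glutamate signalling system. They are the metabotropic glutamate receptors Grm2, Grm3, Grm4, Grm5, Grm7 and Grm8 and the vesicular glutamate transporters Slc17a6, Slc17a7 and Slc17a8. They were taken by symbol from 19938 genes that had a probe set naming that gene alone, and each of the 9 was read by 1 probe set. Of the 9, 8 passed the filter on low values, as did 14953 genes in all. Grm8 did not pass it. The arrays measured RNA from cultures of the mouse embryonic stem cell line D3 at day 16 of differentiation into neurons, which started from embryoid bodies formed without LIF. No sample title names a drug or other agent. The 4 groups were unmodified D3 cells (D3), D3 cells with a scrambled control sequence (siSCR), and D3 cells with knockdown of the arginine methyltransferase PRMT1 (siPRMT1) or of PRMT8 (siPRMT8). Each group had 3 biological replicates. Each group is 1 line, so the history of a line and its knockdown cannot be told apart. Nothing in the labels says that the replicates were separate differentiations, so a p-value measures only the spread between these samples, which may be technical.

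Metabotropic glutamate receptors are G protein-coupled receptors that tune transmission at synapses, whereas ionotropic receptors are channels that carry the fast current. Group I receptors, such as Grm5, act through Gq and phospholipase C and lie mostly beside the postsynaptic density. Group II receptors (Grm2 and Grm3) and group III receptors (Grm4, Grm7 and Grm8) act through Gi and Go and mostly restrain transmitter release. The vesicular transporters load glutamate into synaptic vesicles, and a neuron that carries one of them can release glutamate. Slc17a6 (VGLUT2) prevails in brainstem, spinal and young neurons, Slc17a7 (VGLUT1) in the mature cortex and hippocampus, and Slc17a8 (VGLUT3) in scattered neurons that often use another transmitter as well.

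Promoter sequences are shown for Grm2, which rose in both knockdown lines against siSCR, and for 3 genes that fell, Grm3, Grm7 and Slc17a6. The RefSeq table of assembly GRCm38.p6 held windows of 300 bases for 7 of the 9 genes (12 windows, 250 bases before to 50 after a start site); Grm4 and Grm5 were not among them. The Grm2 window is chr9:106656060-106656359 and the Grm3 window chr5:9725303-9725602, both on the minus strand. The first Grm7 window is chr6:110645262-110645561 and the first Slc17a6 window chr7:51621580-51621879, both on the plus strand. Capitals mark matches to 3 words searched on both strands, which were chosen with the sequences in view. TTCAGCACC and GGACAGC are the left and right parts of the RE1 element, the recognition sequence of the repressor of neuronal genes REST, and CANNTG is the E-box of bHLH factors. The words do not overlap each other in these windows.
Grm2: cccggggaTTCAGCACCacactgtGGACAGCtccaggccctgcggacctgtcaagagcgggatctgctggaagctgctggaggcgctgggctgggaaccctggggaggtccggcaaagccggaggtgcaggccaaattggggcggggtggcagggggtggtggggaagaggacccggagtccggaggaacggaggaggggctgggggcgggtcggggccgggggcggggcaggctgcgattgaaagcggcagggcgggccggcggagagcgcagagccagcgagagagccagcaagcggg
Grm3: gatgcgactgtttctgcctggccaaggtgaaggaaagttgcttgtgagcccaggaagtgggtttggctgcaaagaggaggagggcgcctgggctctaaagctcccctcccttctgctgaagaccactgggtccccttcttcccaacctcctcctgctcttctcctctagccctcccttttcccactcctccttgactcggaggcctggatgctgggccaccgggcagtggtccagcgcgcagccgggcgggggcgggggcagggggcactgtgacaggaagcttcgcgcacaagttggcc
Grm7: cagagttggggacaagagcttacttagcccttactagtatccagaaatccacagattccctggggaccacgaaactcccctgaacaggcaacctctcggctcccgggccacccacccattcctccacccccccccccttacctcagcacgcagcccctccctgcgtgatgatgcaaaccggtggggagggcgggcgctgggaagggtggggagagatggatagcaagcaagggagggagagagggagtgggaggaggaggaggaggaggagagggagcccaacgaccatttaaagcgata
Slc17a6: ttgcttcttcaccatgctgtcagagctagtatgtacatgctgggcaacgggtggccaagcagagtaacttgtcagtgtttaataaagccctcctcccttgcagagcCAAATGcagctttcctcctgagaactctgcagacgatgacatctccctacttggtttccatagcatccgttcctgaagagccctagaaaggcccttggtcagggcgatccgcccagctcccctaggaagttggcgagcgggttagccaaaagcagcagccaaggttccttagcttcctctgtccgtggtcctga

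The Grm2 window held TTCAGCACC and GGACAGC in the same orientation, with 7 bases between them. Of the 32851 windows of this length in the table, 122 (0.371%) held TTCAGCACC, 2155 (6.56%) held GGACAGC and 14 (0.0426%) held both. The last count took both words at any spacing and on either strand, so it is not the share of windows with this arrangement. Whether the words at a spacing of 7 bases form an RE1 element was not tested. None of the other 11 windows of these genes held either word. An E-box stood in 7 of the 12 windows, against 72.3% of all windows, and in neither the Grm2, the Grm3 nor the Grm7 windows. The Grm2 window had 22 CpG dinucleotides and 72.0% GC, against medians of 7 and 52.7% over all windows. The Grm3 window had 11 and 63.7%, the first Grm7 window 10 and 61.0%, and the first Slc17a6 window 8 and 53.7%. The first Grm8 window had more CpG than that of Grm2 (33, with 67.0% GC). These matches describe letters only, and binding of a factor was not measured.

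The targeted genes were read first as a check of the labels. Prmt1 was 1.06 lower in siPRMT1 than in siSCR (log2 -1.06, SE 0.0885, adjusted p = 0.000115), and Prmt8 was 0.61 lower in siPRMT8 (log2 -0.61, SE 0.157, adjusted p = 0.0171), with limma and n = 3 per group. Without siSCR replicate 1 these were -1.05 and -0.79. Each targeted gene also differed in the other knockdown line. Prmt8 was also lower in siPRMT1 against D3 (log2 -0.75, adjusted p = 0.00488) and, without siSCR replicate 1, against siSCR (-0.50, adjusted p = 0.019; with it -0.32, adjusted p = 0.177). Prmt8 did not pass between the knockdown lines (0.29 higher in siPRMT1, adjusted p = 0.489). Prmt1 was higher in siPRMT8 against siSCR (0.43, adjusted p = 0.00625) and D3 (0.49, adjusted p = 0.00232). The neuron markers Map2 and Snap25 read 9.28 to 10.72 and 8.63 to 10.47 over the 12 arrays, above the filter at 5.43, but so did the pluripotency marker Pou5f1 (9.57 to 10.52). On the first principal component the array of siSCR replicate 1 lay at 0.105, the other siSCR and D3 arrays at -26.2 to -21.6 and the 6 knockdown arrays at 13.6 to 25.7. Differences of the 9 genes and the calls of the lists against siSCR were therefore also computed without it. All levels are the authors' deposited log2 values, and a level of 1 gene cannot be set against that of another, since their probes differ. Background levels and detection calls were not used here, so it cannot be said which of the dim genes were above background.

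Against siSCR, both knockdown lines had lower levels of Grm3, Grm5, Grm7 and Slc17a6 and a higher level of Grm2. In each comparison 4 of the 8 genes tested fell, 1 rose and 3 did not pass (limma, Benjamini-Hochberg adjusted p under 0.05 over 14953 genes, n = 3 per group). Over all genes 18.7% changed in siPRMT1 against siSCR (11.6% lower, 7.18% higher) and 23.8% in siPRMT8 against siSCR (13.2% lower, 10.7% higher). The 2 comparisons share the siSCR arrays. The median difference of the 8 genes was -0.67 in siPRMT1 and -0.49 in siPRMT8, beside 0.036 and 0.012 over all genes. Without siSCR replicate 1 the counts were again 5 and 5. The first was 3 without siSCR replicate 3. The second was 2 without siSCR replicate 2, siSCR replicate 3 or siPRMT8 replicate 1, and 3 without siPRMT8 replicate 3. Each array read a whole culture, so fewer cells of a type and less RNA per cell cannot be told apart.

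**Figure D1:**
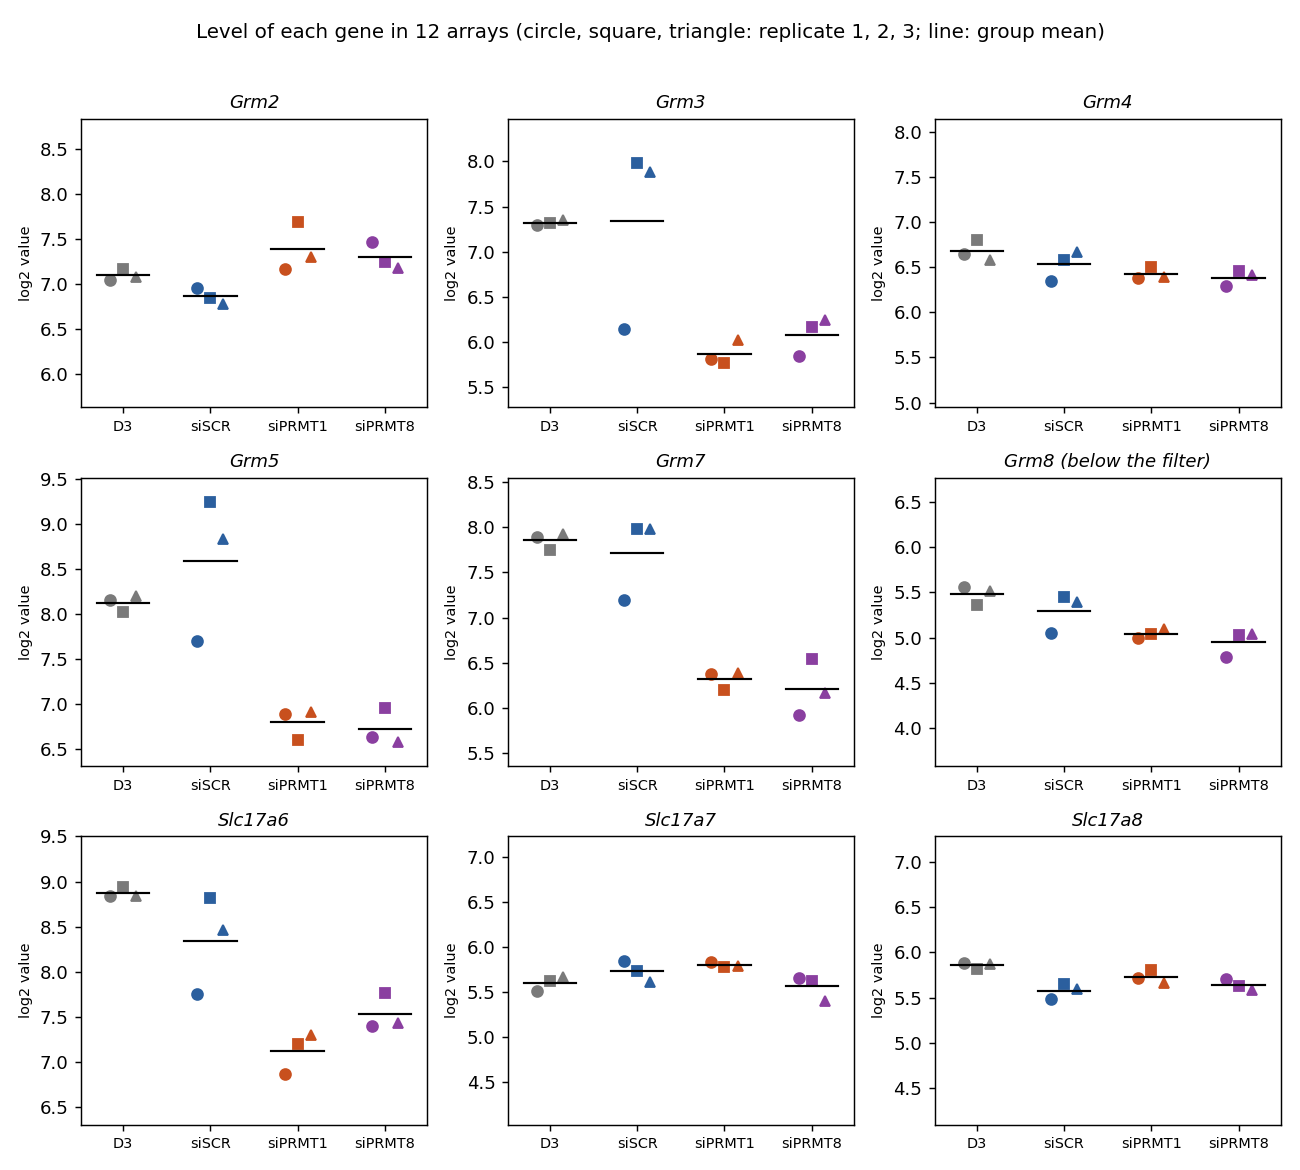
Log2 level (y axis, each panel spanning the same number of log2 units) of the 9 genes in the 4 groups (x axis), with 1 point per array and a line at the group mean of 3 arrays. Grm3, Grm5, Grm7 and Slc17a6 are lower in both knockdown groups than in D3, Grm2 is higher in them than in siSCR, and siSCR replicate 1 (circle) stands below the other siSCR arrays for Grm3, Grm5, Grm7 and Slc17a6.

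Grm5, the group I receptor, had D3 levels of 8.16, 8.02 and 8.20 and siSCR levels of 7.71, 9.25 and 8.83. Its levels under knockdown were 6.89, 6.60 and 6.92 (siPRMT1) and 6.64, 6.96 and 6.59 (siPRMT8). Every knockdown array lay below every control array, and siSCR replicate 1 was the lowest control. Grm5 fell 3.46-fold in siPRMT1 against siSCR (log2 -1.79, SE 0.29, 95% interval -2.43 to -1.16, adjusted p = 0.00253). It fell 3.65-fold in siPRMT8 against siSCR (log2 -1.87, SE 0.29, adjusted p = 0.00174). Against D3 the falls were 2.51-fold in siPRMT1 (log2 -1.33, adjusted p = 0.00634) and 2.64-fold in siPRMT8 (log2 -1.40, adjusted p = 0.00457). With each array of the compared groups left out in turn, Grm5 kept passing in these 4 comparisons, with differences against siSCR of -2.24 to -1.47 in siPRMT1 and -2.31 to -1.54 in siPRMT8. In a fit of the siPRMT1 and siSCR arrays alone it did not pass (adjusted p = 0.051). Grm5 was 0.47 higher in siSCR than in D3, which did not pass (adjusted p = 0.642). The difference was 0.91 without siSCR replicate 1 and still did not pass (adjusted p = 0.0501).

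Grm3, a group II receptor that astrocytes express as well as neurons, had D3 levels of 7.29, 7.31 and 7.35 and siSCR levels of 6.15, 7.98 and 7.89. The knockdown levels were 5.81, 5.77 and 6.02 (siPRMT1) and 5.84, 6.17 and 6.24 (siPRMT8). The siSCR replicate 1 value lay inside the siPRMT8 range, 1.79 below the mean of the other siSCR arrays (difference -1.79). The D3 arrays were separate from all 6 knockdown arrays. Grm3 fell 2.77-fold in siPRMT1 against siSCR (log2 -1.47, SE 0.363, 95% interval -2.26 to -0.68, adjusted p = 0.0167) and 2.39-fold in siPRMT8 against siSCR (log2 -1.26, adjusted p = 0.0274). Without siSCR replicate 1 these differences were -2.07 (adjusted p = 1.29e-06) and -1.85 (adjusted p = 2.27e-06). The siPRMT1 call was lost without siSCR replicate 2 (-1.15, adjusted p = 0.0746) or replicate 3 (-1.20, adjusted p = 0.0776). The siPRMT8 call was lost when siSCR replicate 2 or 3 was left out (-0.94 and -0.98, adjusted p = 0.11 and 0.114), and when siPRMT8 replicate 1, 2 or 3 was (-1.14, -1.30 and -1.34, adjusted p = 0.091, 0.0549 and 0.0649). In fits of the 2 compared groups alone neither call held (adjusted p = 0.11 in siPRMT1 and 0.0824 in siPRMT8).

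Against D3, Grm3 fell by 1.45 in siPRMT1 (log2 -1.45, adjusted p = 0.0126) and by 1.24 in siPRMT8 (log2 -1.24, adjusted p = 0.0254). The siPRMT8 difference from D3 did not pass when any of its 6 arrays was left out (-1.32 to -1.12, adjusted p = 0.0526 to 0.0868). The standard error there was shared with the siSCR arrays. With the spread estimated without siSCR replicate 1, a setting chosen after seeing the data, the adjusted p against D3 was 2.24e-06 in siPRMT1 and 8.003e-06 in siPRMT8. The siSCR and D3 means of Grm3 differed by 0.021 (adjusted p = 0.993), and by 0.62 without siSCR replicate 1 (adjusted p = 0.0752).

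Grm2, the other group II receptor and mainly a presynaptic brake on glutamate release, had D3 levels of 7.04, 7.16 and 7.08 and siSCR levels of 6.95, 6.85 and 6.78. Under knockdown the levels were 7.17, 7.68 and 7.30 (siPRMT1) and 7.46, 7.24 and 7.18 (siPRMT8). All 6 knockdown arrays lay above all 6 control arrays, and siPRMT1 replicate 2 was the highest. Grm2 rose 1.44-fold in siPRMT1 against siSCR (log2 0.52, SE 0.119, 95% interval 0.26 to 0.78, adjusted p = 0.012) and 1.35-fold in siPRMT8 against siSCR (log2 0.43, SE 0.119, adjusted p = 0.0222). The first call was lost without siSCR replicate 3 (0.48, adjusted p = 0.0545) and in a fit of these 2 groups alone (adjusted p = 0.0833). The second was lost when siSCR replicate 2 or 3 was left out (0.43 and 0.39, adjusted p = 0.0662 and 0.0823), and when siPRMT8 replicate 1 was (0.35, adjusted p = 0.0889). Without siSCR replicate 1 the differences were 0.57 and 0.48, and both passed. The siSCR arrays all lay below the D3 arrays for Grm2 (log2 -0.24 in siSCR against D3, adjusted p = 0.573, not passed). Against D3, Grm2 did not pass in siPRMT1 (log2 0.29, adjusted p = 0.0947) or siPRMT8 (log2 0.20, 95% interval -0.062 to 0.46, adjusted p = 0.243). Without siPRMT1 replicate 1 it passed against D3 in siPRMT1 (log2 0.39, adjusted p = 0.0344). With array weights it passed as higher against D3 in both (0.21 in siPRMT1, adjusted p = 0.0387, and 0.20 in siPRMT8, adjusted p = 0.0448).

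Grm7, a group III receptor of the presynaptic active zone, had D3 levels of 7.90, 7.75 and 7.92 and siSCR levels of 7.19, 7.98 and 7.99. Its levels under knockdown were 6.37, 6.19 and 6.38 (siPRMT1) and 5.92, 6.54 and 6.17 (siPRMT8). The knockdown arrays were again all below the control arrays, with siSCR replicate 1 the lowest control. Grm7 fell 2.65-fold in siPRMT1 against siSCR (log2 -1.40, SE 0.2, adjusted p = 0.00143) and 2.85-fold in siPRMT8 against siSCR (log2 -1.51, SE 0.2, adjusted p = 0.001). Against D3 it fell 2.91-fold in siPRMT1 (log2 -1.54, adjusted p = 0.000473) and 3.13-fold in siPRMT8 (log2 -1.65, adjusted p = 0.00052). These 4 calls held with each array of the compared groups left out, and the adjusted p then reached at most 0.0098. Without siSCR replicate 1 the differences from siSCR were -1.67 in siPRMT1 and -1.77 in siPRMT8.

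Grm4, a group III receptor best known from cerebellar granule cells, had D3 levels of 6.64, 6.81 and 6.58 and siSCR levels of 6.35, 6.58 and 6.67. The knockdown levels were 6.38, 6.50 and 6.39 (siPRMT1) and 6.29, 6.46 and 6.41 (siPRMT8). The siSCR arrays overlapped both sets of knockdown arrays, of which siPRMT8 replicate 1 was the lowest of all, whereas all 3 D3 arrays lay above every knockdown array. Grm4 did not pass against siSCR in siPRMT1 (log2 -0.11, 95% interval -0.31 to 0.09, adjusted p = 0.424) or siPRMT8 (log2 -0.15, 95% interval -0.35 to 0.053, adjusted p = 0.271). With siSCR replicate 1 left out these differences were -0.20 (adjusted p = 0.0989) and -0.24 (adjusted p = 0.0524). With array weights the siPRMT8 difference passed (-0.22, adjusted p = 0.0477), as did that of siPRMT1 against D3 (-0.27, adjusted p = 0.00811). Against D3 it fell by 0.29 in siPRMT8 (log2 -0.29, adjusted p = 0.035) and did not pass in siPRMT1 (log2 -0.25, adjusted p = 0.0611). The siPRMT8 call was lost without D3 replicate 1 or 2 (-0.31 and -0.23, adjusted p = 0.0737 and 0.134) or siPRMT8 replicate 1 or 3 (-0.24 and -0.30, adjusted p = 0.126 and 0.0747). The siPRMT1 difference passed without siPRMT1 replicate 2 (-0.29, adjusted p = 0.0456). When siPRMT1 replicate 2 and siSCR replicate 1 were dropped together, Grm4 also passed against siSCR in siPRMT1 and in siPRMT8 (-0.24 in each, adjusted p = 0.0444 and 0.0282).

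Grm8, a presynaptic group III receptor, had a mean of 5.19 over the 12 arrays, below the filter at 5.43. It had D3 levels of 5.56, 5.36 and 5.52, siSCR levels of 5.05, 5.45 and 5.39, siPRMT1 levels of 4.99, 5.04 and 5.09 and siPRMT8 levels of 4.79, 5.02 and 5.04. All knockdown arrays lay below the D3 arrays, and siSCR replicate 1 lay within the siPRMT1 range. When no filter was applied (19938 genes), Grm8 was lower against D3 in siPRMT1 (log2 -0.44, adjusted p = 0.0146) and in siPRMT8 (log2 -0.53, adjusted p = 0.00538). Without that filter it was at the threshold against siSCR in siPRMT8 (log2 -0.34, adjusted p = 0.04985) and did not pass in siPRMT1 (log2 -0.26, adjusted p = 0.15). In that setting 12.5%, 16%, 18.8% and 19.1% of genes changed in siPRMT1 and siPRMT8 against siSCR and in siPRMT1 and siPRMT8 against D3.

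Slc17a6, the vesicular transporter of brainstem and spinal glutamatergic neurons, had D3 levels of 8.84, 8.94 and 8.84 and siSCR levels of 7.76, 8.81 and 8.46. Under knockdown the levels were 6.86, 7.20 and 7.30 (siPRMT1) and 7.40, 7.76 and 7.43 (siPRMT8). The siPRMT1 arrays were below all control arrays, while siPRMT8 replicate 2 and siSCR replicate 1 were nearly equal (7.763 and 7.756). Slc17a6 fell 2.34-fold in siPRMT1 against siSCR (log2 -1.23, SE 0.215, 95% interval -1.70 to -0.76, adjusted p = 0.0036) and 1.75-fold in siPRMT8 against siSCR (log2 -0.81, SE 0.215, adjusted p = 0.0192). Against D3 it fell 3.38-fold in siPRMT1 (log2 -1.76, adjusted p = 0.000408) and 2.53-fold in siPRMT8 (log2 -1.34, adjusted p = 0.00128). Leaving out any 1 array of the compared groups did not end the siPRMT1 calls or the siPRMT8 call against D3. The siPRMT8 call against siSCR was lost when siSCR replicate 2 or 3 was left out (-0.58 and -0.75, adjusted p = 0.073 and 0.0722), and when siPRMT8 replicate 1 or 3 was (-0.74 and -0.76, adjusted p = 0.0668 and 0.0727). Without siSCR replicate 1 it was -1.10 (adjusted p = 0.000276). The siPRMT1 difference was then -1.52 (adjusted p = 2.38e-05). In fits of the 2 compared groups alone neither call against siSCR held (adjusted p = 0.0553 in siPRMT1 and 0.0547 in siPRMT8).

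Slc17a7, the transporter of mature cortical neurons, had D3 levels of 5.52, 5.63 and 5.66 and siSCR levels of 5.85, 5.73 and 5.62. Its levels under knockdown were 5.83, 5.78 and 5.79 (siPRMT1) and 5.66, 5.63 and 5.41 (siPRMT8). The 12 values covered only 0.44 log2 units, near the filter. Slc17a7 passed in none of the 6 comparisons with all arrays weighted equally. Its interval against siSCR was -0.11 to 0.25 in siPRMT1 (log2 0.07, adjusted p = 0.576) and -0.35 to 0.0097 in siPRMT8 (log2 -0.17, adjusted p = 0.157). With siSCR replicate 1 left out the differences were 0.13 (adjusted p = 0.294) and -0.11 (adjusted p = 0.376). With array weights Slc17a7 passed as higher in siPRMT1 against D3 (0.20, adjusted p = 0.0335).

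Slc17a8, the transporter that some cholinergic and serotonergic neurons carry, had D3 levels of 5.89, 5.81 and 5.87 and siSCR levels of 5.49, 5.65 and 5.59. The knockdown levels were 5.72, 5.80 and 5.66 (siPRMT1) and 5.71, 5.63 and 5.58 (siPRMT8). The D3 arrays were the highest 3 of the 12. Slc17a8 did not pass against siSCR in siPRMT1 (log2 0.15, 95% interval 0.0099 to 0.29, adjusted p = 0.126) or siPRMT8 (log2 0.063, adjusted p = 0.518). With siSCR replicate 1 left out these were 0.11 (adjusted p = 0.271) and 0.019 (adjusted p = 0.862). Against D3 it fell by 0.22 in siPRMT8 (log2 -0.22, adjusted p = 0.0268) and did not pass in siPRMT1 (log2 -0.13, adjusted p = 0.154). The control line siSCR lay further below D3 than siPRMT8 did (log2 -0.28), though that difference did not pass (adjusted p = 0.154). After quantile normalisation the siPRMT1 difference from D3 passed (-0.19, adjusted p = 0.0377), as it did with array weights (-0.18, adjusted p = 0.01) and with siPRMT1 replicate 2 and siSCR replicate 1 dropped together (-0.17, adjusted p = 0.0493). The siPRMT8 call was lost without D3 replicate 1 or 3 (-0.20 and -0.21, adjusted p = 0.0932 and 0.0807) or siPRMT8 replicate 2 or 3 (-0.21 and -0.19, adjusted p = 0.0696 and 0.0988).

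**Figure D2:**
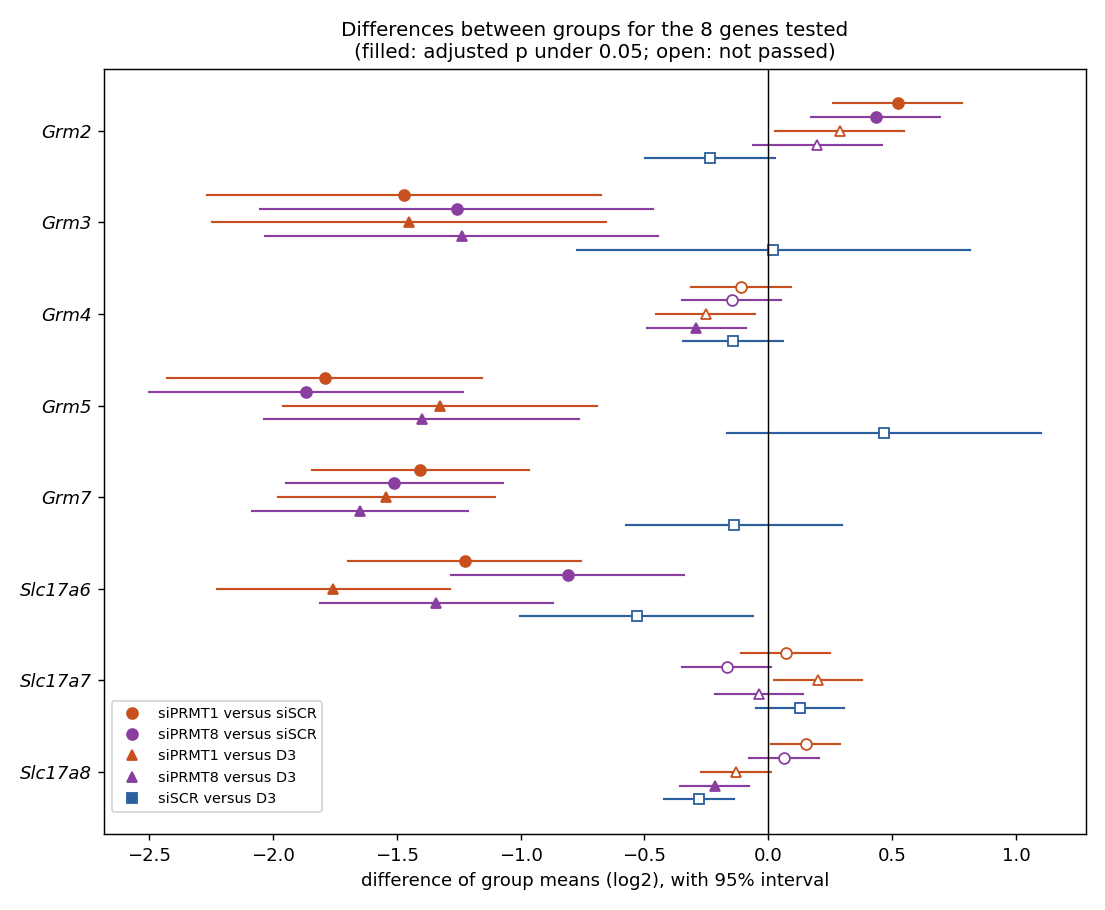
Difference of group means on the log2 scale (x axis) for the 8 genes tested (y axis), with limma's 95% interval as a line; circles are against siSCR, triangles are knockdowns against D3, squares are siSCR against D3, and filled symbols passed at an adjusted p under 0.05. Grm3, Grm5, Grm7 and Slc17a6 are filled and below 0 in the 4 knockdown comparisons, Grm2 is filled and above 0 against siSCR, and no siSCR against D3 difference is filled.

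Against the unmodified line, 4 of the 8 genes tested fell in siPRMT1 (Grm3, Grm5, Grm7 and Slc17a6) and 6 fell in siPRMT8, where Grm4 and Slc17a8 were added. None rose in either comparison, in which Grm2 was the member with the highest difference (0.29 and 0.20, not passed). With array weights 2 rose in siPRMT1 against D3 (Grm2 and Slc17a7) and 1 in siPRMT8 (Grm2). Over all genes 26.4% changed in siPRMT1 against D3 (14.7% lower) and 27.7% in siPRMT8 against D3 (15.2% lower). The 6 genes were 3 without D3 replicate 1 or siPRMT8 replicate 3. Non-overlapping groups were counted for 8 of the 8 genes in siPRMT1 and 7 in siPRMT8, against 44.2% and 52.6% of all genes. Against siSCR they did not overlap in 6 and 3 of the 8, beside 30% and 41.8% of all genes. In both D3 comparisons the differences of 1 log2 unit or more were those of Grm3, Grm5, Grm7 and Slc17a6. For Slc17a8 the siSCR line lay further below D3 (log2 -0.28, not passed) than siPRMT8 did (log2 -0.22).

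The control lines were compared to see how far a scrambled sequence and a separate line shift these genes. None of the 8 passed in siSCR against D3 (limma), where 0.154% of all genes did. At an unadjusted p under 0.05 there were 2 of the 8, beside 1430 of all 14953 genes. The 2 were Slc17a6 (log2 -0.53, adjusted p = 0.458) and Slc17a8 (log2 -0.28, adjusted p = 0.154), both with non-overlapping groups. Grm2 was the third member without overlap here (log2 -0.24, adjusted p = 0.573), against 20.3% of all genes. With array weights 2 members passed, Grm5 (0.75, adjusted p = 0.0429) and Slc17a8 (-0.26, adjusted p = 0.0233). When siPRMT1 replicate 2 and siSCR replicate 1 were dropped together, 2 passed, Grm5 (0.91, adjusted p = 0.00724) and Grm3 (0.62, adjusted p = 0.0231). With the replicate number as a block, 15 genes in place of 23 passed over all genes and again 0 members.

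The knockdown lines were compared directly to ask whether any of these genes differs between them. None of the 8 passed in siPRMT1 against siPRMT8 (limma), where 0.154% of all genes did. At an unadjusted p under 0.05 there was 1 of the 8 (Slc17a7), beside 1824 of all 14953 genes, a similar share. The Slc17a7 groups did not overlap (siPRMT1 higher by 0.24, 95% interval 0.06 to 0.42, adjusted p = 0.287). The Slc17a6 groups did not overlap either, with siPRMT1 lower (log2 -0.42, 95% interval -0.89 to 0.054, adjusted p = 0.467). The intervals were -0.56 to 0.71 for Grm5, -1.01 to 0.58 for Grm3, -0.33 to 0.54 for Grm7 and -0.17 to 0.35 for Grm2, so differences of those sizes between the lines were not resolved. Groups without overlap made up 15.8% of all genes. In 1 test of any difference among the 4 groups (moderated F), Grm2, Grm3, Grm5, Grm7, Slc17a6 and Slc17a8 passed (adjusted p = 0.000303 for Grm7 to 0.0247 for Slc17a8), and Grm4 (0.0894) and Slc17a7 (0.105) did not. That test called 30.6% of all genes.

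The 4 genes that fell did not follow the same course over the control arrays. Grm3, Grm5 and Grm7 were highest in siSCR replicates 2 and 3, above every D3 array (for Grm7 by little, 7.98 and 7.99 against at most 7.92), while Slc17a6 was highest in D3. In siSCR replicate 1 the shortfall from the mean of the other siSCR arrays was largest for Grm3 (-1.79), then Grm5 (-1.33), Slc17a6 (-0.88) and Grm7 (-0.79). It was -0.37 for Grm8 and -0.28 for Grm4, and Grm2 lay 0.14 above. After each gene was centred on its mean over the 12 arrays, the root mean square difference between Slc17a6 and Grm5 was 0.46 log2 units, and the other 5 pairs among Grm3, Grm5, Grm7 and Slc17a6 were 0.28 to 0.33 apart. The nearest genes were sought by the same measure, leaving out members, genes with Gm, LOC or Rik names and small RNAs. The 3 nearest of the other genes tested were Kcnd2 (0.13), Gria1 (0.133) and Cntn1 (0.135) for Grm3. They were Tafa1 (0.186), Sphkap (0.192) and B3gat2 (0.236) for Grm5. For Grm7 they were Prkar1b (0.0842), Sv2a (0.109) and Syp (0.11), and for Slc17a6 Akap6 (0.126), Erbb4 (0.131) and Ptprz1 (0.135).

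**Figure D3:**
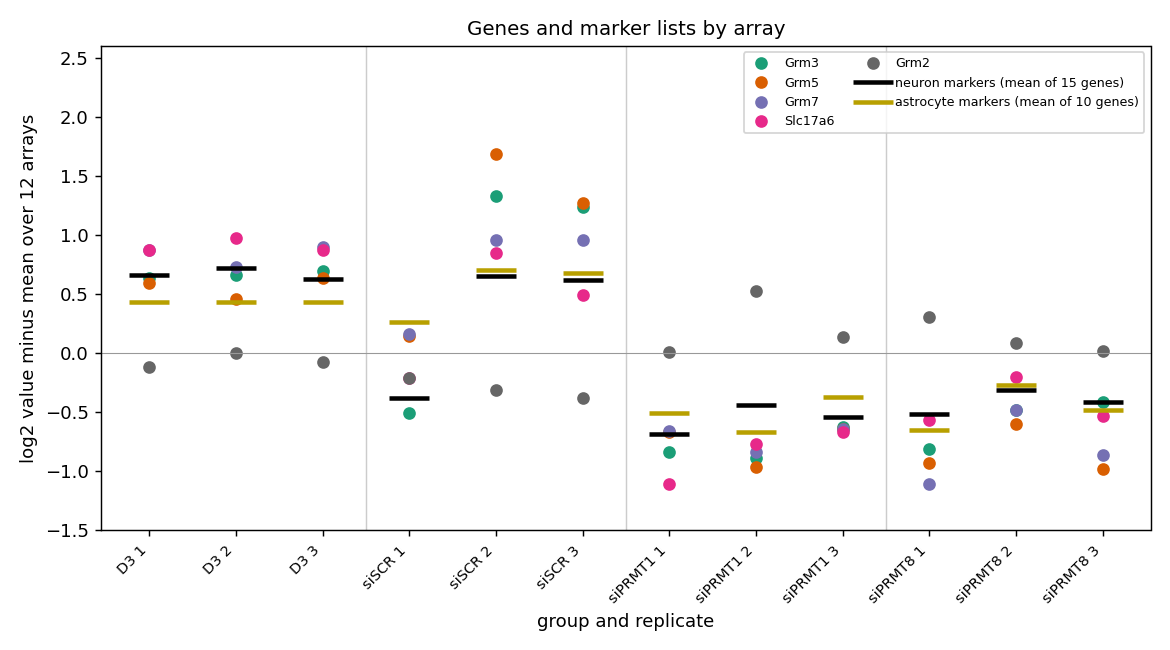
Log2 value minus the gene's mean over the 12 arrays (y axis) for 5 of the genes in each array (x axis), with dashes for the mean of 15 neuron and 10 astrocyte markers treated the same way. The neuron dash is at -0.38 in siSCR replicate 1 and at 0.62 to 0.72 in the other 5 control arrays, and Grm3, Grm5, Grm7 and Slc17a6 are also lower there than in the other siSCR arrays.

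Markers of neurons and of astrocytes fell along with Grm3, Grm5, Grm7 and Slc17a6, whereas Grm2 rose against siSCR. Over all genes 11.6% were lower in siPRMT1 against siSCR and 13.2% in siPRMT8. Of 15 neuron markers (Tubb3, Map2, Rbfox3, Snap25 and others) 12 fell and 0 rose in siPRMT1 against siSCR (median -0.95), and 10 fell and 0 rose in siPRMT8 against siSCR (median -0.75). All 15 fell in both without siSCR replicate 1, when 14.4% and 14.9% of all genes were lower and 10.8% and 12.6% higher. Their mean centred level was 0.63 to 0.72 in D3, -0.38, 0.65 and 0.62 in siSCR, -0.68 to -0.44 in siPRMT1 and -0.52 to -0.31 in siPRMT8. Of 10 astrocyte markers 8 were tested and 8 of 8 fell in each knockdown against siSCR (medians -1.19 and -1.21), among them Gfap and Aldh1l1, with or without siSCR replicate 1. Their mean centred level was 0.43 in each D3 array, 0.27, 0.705 and 0.68 in siSCR, -0.67 to -0.37 in siPRMT1 and -0.65 to -0.27 in siPRMT8. No array value is 0 on this scale, so no marker could be called absent. The part of either marker list in the differences of the receptors and transporters was not tested.

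Of the other lists of cell types, GABAergic markers had 2 and 3 of 6 tested genes lower in siPRMT1 and siPRMT8 against siSCR, led by Gad2 (log2 -0.96 and -0.63). Oligodendrocyte lineage markers had 2 of 7 lower in each, Olig1 and Olig2, and 1 higher in siPRMT1, Pdgfra (0.30), which did not pass without siSCR replicate 1. Neural progenitor markers had 1 of 8 lower and 1 higher in siPRMT1, and 0 lower and 4 higher in siPRMT8, with Prom1 (0.41 and 0.64) higher in both. Against D3 the progenitor counts were 3 lower and 0 higher in siPRMT1 (median -0.21) and 1 lower and 2 higher in siPRMT8 (median -0.014). Cycling markers had 2 and 3 of 5 higher, and pluripotency markers 0 of 6 in either direction. Mesenchymal markers had 4 of 5 lower in each knockdown, with Dcn lowest (-1.41 and -1.16). Endothelial markers had 0 and 1 of 4 lower, and the 1 myeloid marker tested, Cd68, was lower in siPRMT8 (-0.87, adjusted p = 0.0279). Leaving out siSCR replicate 1, the 4 higher progenitor and 3 higher cycling markers of siPRMT8 were 2 and 1, its 4 lower mesenchymal markers were 2, and its endothelial and myeloid calls were 0. With all arrays, 11.6% of all genes were lower and 7.18% higher in siPRMT1 against siSCR, and 13.2% and 10.7% in siPRMT8. Counts of 1 of 8 are near these shares. Against D3 the shares were 14.7% lower and 11.7% higher in siPRMT1, and 15.2% and 12.5% in siPRMT8.

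The receptors act through a larger set of proteins, which was counted next. Of 28 measured genes for receptor coupling and scaffolds 12 fell and 0 rose in siPRMT1 against siSCR (median -0.23), and 13 fell and 1 rose in siPRMT8 (median -0.24). Over all genes 11.6% were lower and 7.18% higher in siPRMT1, and 13.2% and 10.7% in siPRMT8. The largest falls in this list were those of the Go subunit Gnao1 (log2 -1.63 in siPRMT1 and -1.48 in siPRMT8, SE 0.221) and the G protein gamma subunit Gng3 (-1.29 and -1.31). Plcb1, a phospholipase C downstream of group I receptors, fell by 0.97 in siPRMT1 (log2 -0.97, adjusted p = 0.0055) and by 0.92 in siPRMT8 (log2 -0.92, adjusted p = 0.00591). The postsynaptic scaffold Shank1 lay at -0.89 and -1.04, and both passed. Homer2, which tethers group I receptors to such scaffolds, was the 1 gene that rose in siPRMT8 (0.24), and without siSCR replicate 1 there were 14 lower and 0 higher genes in each knockdown. Grm6, the metabotropic receptor of retinal bipolar cells, did not pass in any of the 6 comparisons (log2 0.18 in siPRMT1 and 0.047 in siPRMT8 against siSCR).

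Genes for the uptake and metabolism of glutamate fell in part. Of 14 tested 5 fell in siPRMT1 and 6 in siPRMT8 against siSCR, and 0 rose in either (medians -0.18 and -0.25). The neuronal uptake transporter Slc1a1 fell most in both (log2 -1.11 in siPRMT1, adjusted p = 0.00122, and -1.30 in siPRMT8, adjusted p = 0.000624). The glial uptake transporters followed, Slc1a2 at -1.09 and -0.77 and Slc1a3 at -0.87 and -0.74. Both are also in the astrocyte list, whose levels are given above. The counts were 5 and 6 again without siSCR replicate 1. Lower genes made up 11.6% and 13.2% of all genes with all arrays, and 14.4% and 14.9% without that array.

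Of 11 other vesicular transporters and vesicle glycoproteins 3 fell in siPRMT1, and 4 fell and 1 rose in siPRMT8. The 3 were Sv2a (log2 -1.36 in siPRMT1 and -1.59 in siPRMT8), Sv2c (-1.11 and -1.05) and Sv2b (-0.995 and -1.05), which encode glycoproteins of synaptic vesicles. Slc32a1, the vesicular transporter of GABA and glycine, fell by 0.36 in siPRMT8 (log2 -0.36, adjusted p = 0.0166) and the monoamine transporter Slc18a1 rose by 0.28 (adjusted p = 0.0269). When siSCR replicate 1 was left out, the siPRMT8 counts were 5 lower and 1 higher. Of 20 measured transcription factors of glutamatergic lineages 18 were tested, and Neurod6 and Tbr1 lay below the filter at 5.43. Of the 18, 3 fell and 2 rose in siPRMT1, and 1 fell and 3 rose in siPRMT8 (medians 0.068 and 0.036). These counts were near the shares over all genes (11.6% lower and 7.18% higher in siPRMT1, 13.2% and 10.7% in siPRMT8). Against D3 they were 5 lower and 0 higher in siPRMT1 and 4 lower and 1 higher in siPRMT8. Against siSCR, Lhx2 (0.58 and 0.53) and Lhx9 (0.51 and 0.50) rose in both, whereas Foxp2 (-0.47), Tlx3 (-0.30) and Lmx1b (-0.25) fell in siPRMT1, Neurod1 fell in siPRMT8 (-0.35) and Pax6 rose there (0.30). Against D3 neither Lhx2 (0.16 and 0.12) nor Lhx9 (0.35 and 0.34) passed in either knockdown, and Pax6 lay at -0.066 in siPRMT8 (not passed) and fell in siPRMT1 (-0.21, adjusted p = 0.0367). The siPRMT8 fall of Neurod1 from siSCR was lost without siSCR replicate 1 (-0.30, adjusted p = 0.0897). Leaving out siSCR replicate 1 gave 4 lower and 3 higher in siPRMT1 and 2 lower and 4 higher in siPRMT8. Neurod6, left out by the filter, read 4.87 to 5.14 in D3 and 4.07 to 5.17 in siSCR. It read 3.35 to 3.66 in siPRMT1 and 3.33 to 3.74 in siPRMT8, below every control array. Tbr1 read 4.56 to 5.02 in D3, 4.985 to 5.18 in siSCR, 4.94 to 5.21 in siPRMT1 and 4.98 to 5.08 in siPRMT8. Neither gene was tested, and whether they were above background is not known.

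**Figure D4:**
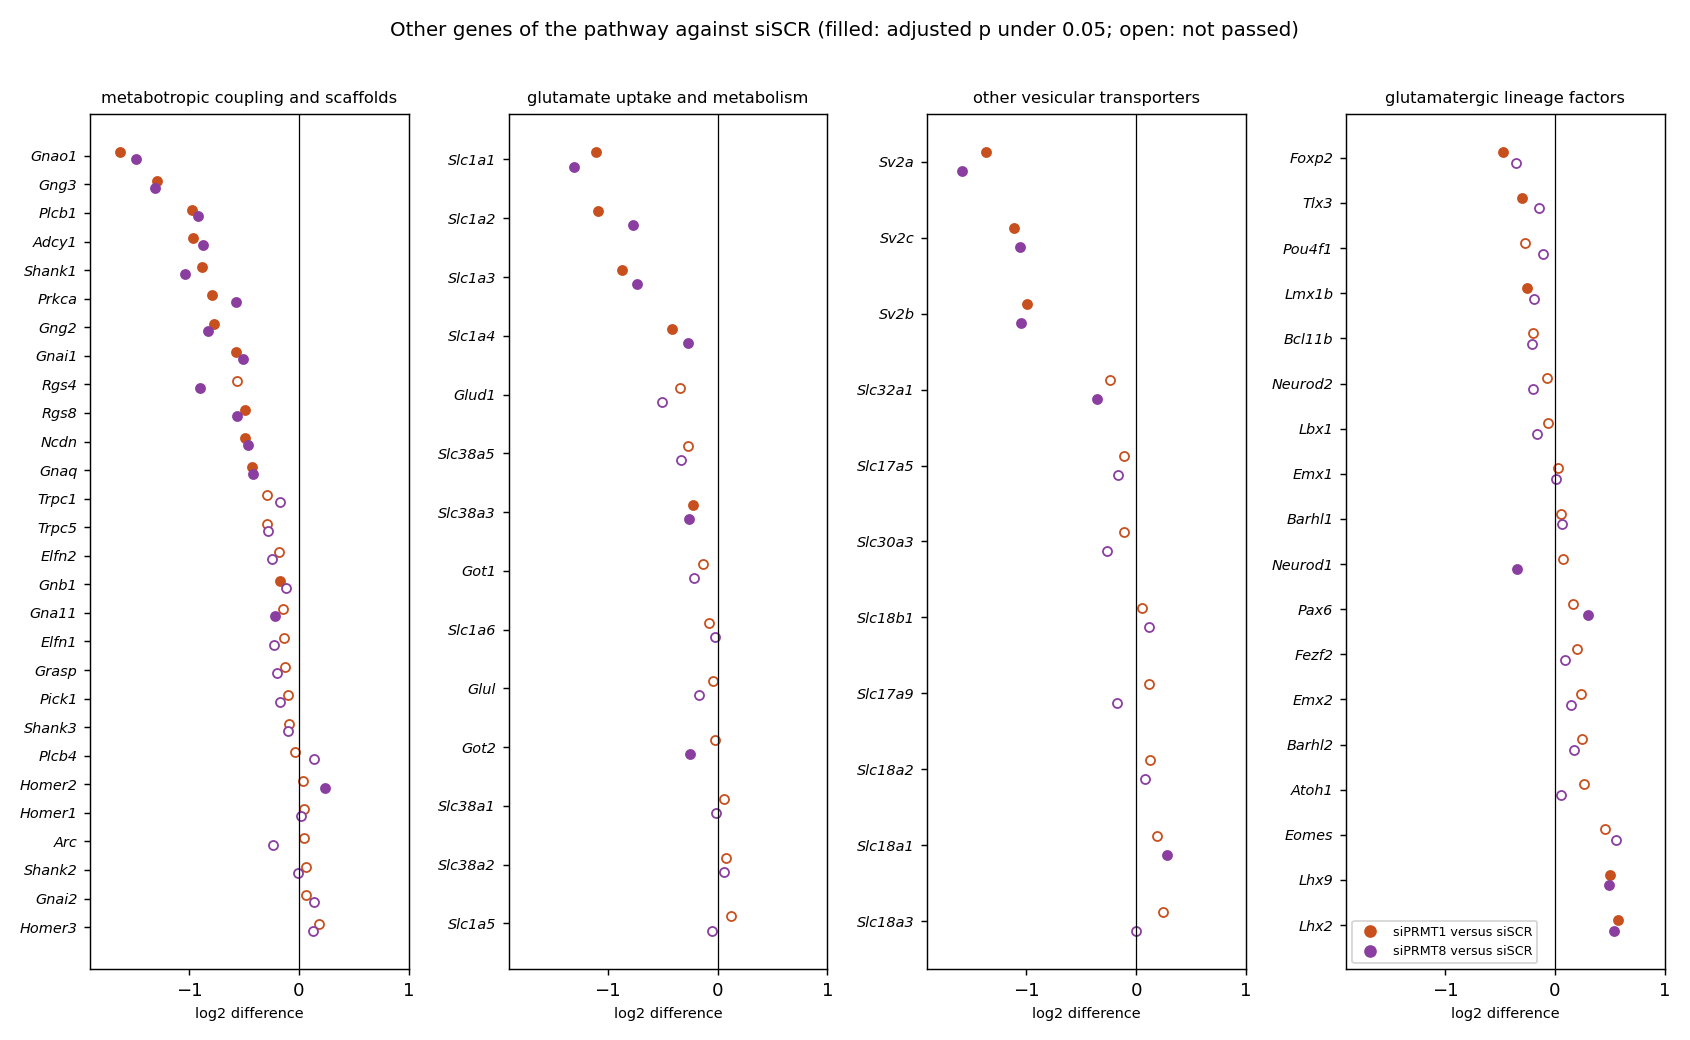
Log2 difference from siSCR (x axis) of the tested genes (y axis) in 4 lists, for siPRMT1 and siPRMT8, with filled symbols where the adjusted p was under 0.05. Gnao1, Slc1a1 and Sv2a are at or below -1.1 in both knockdowns, and Lhx2 and Lhx9 are at 0.50 to 0.58.

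**Figure D5:**
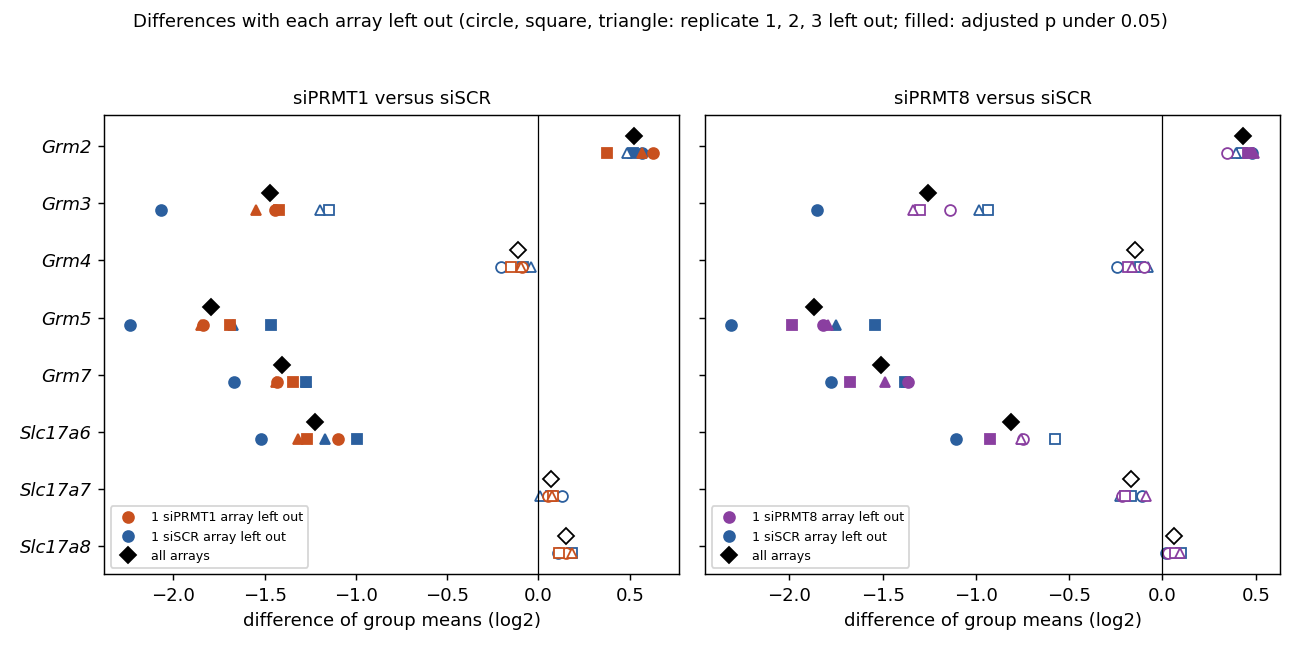
Log2 difference from siSCR (x axis) of the 8 genes (y axis) with all arrays (diamond) and with each array of the 2 compared groups left out in turn, filled where the adjusted p was under 0.05. Leaving out siSCR replicate 1 moves Grm3 from -1.47 to -2.07 in siPRMT1, and Grm5 and Grm7 stay filled throughout in both panels.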

How the data were processed

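The authors deposited log2 values of 35556 probe sets on 12 one-colour whole-transcript arrays. No source names the scale, which was inferred from the range (0.97 to 13.54). Which background correction, probe set summary and normalisation the authors applied is a detail not given in the sources used here. Medians of the arrays lay within 0.023, so they were not rescaled. Probe sets were named through the platform annotation (21789 with 1 gene symbol, 1621 with several, 12146 with none there). Symbols were updated by gene ID through RefSeq GRCm38.p6 (21698 matched). Per symbol the probe set with the highest mean was kept, and genes in the lowest 25% by mean (below 5.43) were left out.

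The 4 groups were fitted in 1 model with limma 3.58.1 in R 4.3.3 (lmFit, eBayes, 8 residual degrees of freedom), adjusted by Benjamini-Hochberg over 14953 genes with a threshold of 0.05. The fit was tested on simulated data with independent noise of the same spread in all groups. That setting has no outlying array such as siSCR replicate 1, so it does not show how the fit behaves with one. The number of arrays limits the precision. Same-numbered siSCR and D3 arrays deviated together (r 0.107 to 0.194 across genes), other group pairs not in all 3 numbers (8 of 18 pairs above 0.1 in all), so the block is given beside that comparison. These values are small beside some of opposite sign. For siPRMT1 and siPRMT8, r was -0.42 in replicate 1 and -0.56 in replicate 2. For siPRMT8 and D3 it was -0.25 to -0.081. Members, gene lists and rules were chosen with earlier results of these data known. The 9 genes were all named. From each other list the rule named the 3 lower and 3 higher genes with the largest change against siSCR among those that passed, and Slc32a1 and the markers were chosen as examples after their values were seen. Likeness was measured for members whose group means spanned at least 1 log2 unit. Alternatives were quantile normalisation, median centring, other filters, mean of probe sets, 2-group fits, trended robust variance, array weights, the replicate block and arrays left out. Promoter words were counted with Python 3.11.15.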

Additional observations from a re-analysis of the deposited data

How the results depend on the processing

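Of the 20 differences of members that passed, none changed direction in any of the 318 values from other settings. 283 of these values passed again and 35 did not, and 10 of the 20 differences passed in every setting run. Many of the 318 values could not change direction. Other filters, 2-group fits, the trended robust variance and a re-estimated spread keep the difference of means as it is. The mean of probe sets keeps it too, since each member had 1 probe set. Median centring, the mean of probe sets and the trended robust variance changed no call. With fits of only 2 groups, 1 member passed in siPRMT1 against siSCR in place of 5 and 3 in siPRMT8 against siSCR in place of 5 (over all genes 357 in place of 2801 in the first). With array weights, whose estimate stopped before its tolerance was reached, 8 members passed in siPRMT1 against D3 in place of 4, and 2 in siSCR against D3 in place of 0. With the lowest 50% of genes left out, 3 members passed in siPRMT8 against D3 in place of 6, because fewer members were tested. When siPRMT1 replicate 2 and siSCR replicate 1 were dropped together, 2 passed in siSCR against D3. With 1 array left out at a time the members that passed numbered 3 to 5 in siPRMT1 and 2 to 5 in siPRMT8 against siSCR, and 4 to 5 in siPRMT1 and 3 to 4 in siPRMT8 against D3. With the replicate number as a block, Grm4 also passed in siPRMT1 against D3 (-0.25, adjusted p = 0.0412), and no other call of a member changed; the counts of members were 5 and 5 against siSCR and 5 and 6 against D3.

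Differences that had not passed changed sign in some settings, and the cause was not tested. In siPRMT1 against siPRMT8, with the same pair of arrays dropped, Grm2 was at -0.0601 and Grm4 at -0.00197. With 1 array left out, Grm2 ranged from -0.0601 to 0.20, Grm4 from -0.011 to 0.073 and Grm7 from -0.04005 to 0.27. In siSCR against D3, Grm7 was at 0.045 with array weights and at 0.13 with both arrays dropped, and with 1 array left out it ranged from -0.27 to 0.13 and Grm3 from -0.30 to 0.62. Slc17a7 in siPRMT8 against D3 ranged from -0.086 to 0.039. The counts over all genes also moved by more than 1.5 times. With array weights they were 5528 and 5694 in siPRMT1 and siPRMT8 against siSCR, 6592 and 6581 against D3, 279 in siSCR against D3 and 1046 in siPRMT1 against siPRMT8. With 1 array left out, siPRMT1 against siSCR ranged from 1317 (without siSCR replicate 3) to 3763, siPRMT8 against siSCR from 1804 (without siPRMT8 replicate 3) to 4107, siPRMT8 against D3 from 2736 (without D3 replicate 1) to 3357, siSCR against D3 from 2 to 21, and siPRMT1 against siPRMT8 from 2 to 862 (without siPRMT1 replicate 2). Dim members (Grm8, Slc17a7 and Slc17a8) lie near the filter, where no signal over background is known.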
